A study of Mus musculus with 4 samples.

Results

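The Ly49 receptor family was followed here as 7 genes, Klra1, Klra3, Klra4, Klra6, Klra7, Klra8 and Klra9, taken by symbol from the 32285 genes of the count tables. These 7 are part of 11 genes in the tables whose symbol starts with Klra. Their transcripts were counted in leukocytes sorted as live CD45+ cells from subcutaneous KPC tumors, grown from a mouse pancreatic cancer line, in male C57BL/6 hosts with an intact immune system. There were 4 groups with 1 droplet library each: Untreated, STING agonist (ADU-S100, injected once into the tumor), LTbR agonist (the antibody 4H8, given repeatedly into the peritoneum), and STING and LTbR agonist, called the combination below. The methods describe more than a single experiment of this kind, and the labels do not say from which of them these libraries come. Tumors were pooled within a group before sorting, so a group holds no replicate libraries and differences between treatments were given with counting intervals and no test.

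Ly49 receptors are lectin-like proteins on the surface of mouse natural killer (NK) cells. Many of them, though not all, bind major histocompatibility complex (MHC) class I molecules of the H2-K and H2-D type. The inhibitory receptors Ly49A (Klra1), Ly49C (Klra3), Ly49F (Klra6), Ly49G2 (Klra7) and Ly49I (Klra9) carry an inhibitory motif in their cytoplasmic tail that recruits the phosphatase SHP-1 (Ptpn6). The activating receptors Ly49D (Klra4) and Ly49H (Klra8) lack that motif and signal through the adapters DAP12 (Tyrobp) and DAP10 (Hcst). Each NK cell switches on its own assortment of these genes, and subsets of CD8 T cells and of other unconventional T cells are also known to carry Ly49 receptors.

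All 7 genes lie on the minus strand of chromosome 6 in GRCm38, the assembly behind mm10, within 373.8 kb (chr6:130013033-130386874). From low to high coordinate the order is Klra6 (chr6:130013033-130026954), Klra4 (chr6:130043731-130067271), Klra8 (chr6:130115226-130129898), Klra9 (chr6:130178675-130193112), Klra7 (chr6:130218605-130233322), Klra3 (chr6:130323289-130337574) and Klra1 (chr6:130363917-130386874). The activating genes Klra4 and Klra8 are neighbors, and Klra10 lies between Klra7 and Klra3. RefSeq's promoter windows on GRCm38.p6, which run from 250 bases before to 50 bases after a gene's start, were matched for all 7 genes. A stretch of related sequence was found in 6 of them, all but Klra1. It is printed because the activating pair and the inhibitory genes differ in it. Whether it bears on which cells carried the genes was not tested. The capitals mark the 8 letters that follow the shared run ending in ttttg or tttcg. Each stretch is read 5′ to 3′ on the minus strand, at chr6:130067297-130067380 for Klra4, chr6:130129925-130130008 for Klra8, chr6:130027020-130027103 for Klra6, chr6:130233358-130233441 for Klra7, chr6:130193103-130193180 for Klra9 and chr6:130337617-130337675 for Klra3.
Klra4: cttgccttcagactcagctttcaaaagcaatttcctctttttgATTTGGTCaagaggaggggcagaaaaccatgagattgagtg
Klra8: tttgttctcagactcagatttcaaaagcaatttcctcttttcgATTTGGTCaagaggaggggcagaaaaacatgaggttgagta
Klra6: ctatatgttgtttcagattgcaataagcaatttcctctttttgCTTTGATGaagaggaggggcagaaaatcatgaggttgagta
Klra7: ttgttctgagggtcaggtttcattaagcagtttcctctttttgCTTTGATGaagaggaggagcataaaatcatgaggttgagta
Klra9: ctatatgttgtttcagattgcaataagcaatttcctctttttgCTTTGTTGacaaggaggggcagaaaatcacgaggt
Klra3: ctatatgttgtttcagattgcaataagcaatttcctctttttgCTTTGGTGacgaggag

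Klra4 and Klra8 were identical at 89.3% of aligned bases of this stretch, and Klra4 and Klra6 at 70.2%. Klra3 matched Klra6 and Klra9 at 96.6% over its 59 bases, and Klra6 matched Klra7 at 82.1%. Other inhibitory pairs were less alike, Klra3 and Klra7 at 74.6% and Klra7 and Klra9 at 75.6%. The letters ATTTGGTC, searched on both strands, stood in the windows of Klra4, Klra8 and the non-member Klra17 and in 0.572% of 32851 promoter windows. The letters CTTTGATG stood in Klra6 and Klra7 and in 1.09% of windows, and CTTTGA, which lies within them, in 16%. These letters were chosen after the sequences had been read and describe the windows alone.

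The deposited tables held 24839 cell barcodes, of which 23011 were kept after limits on genes per cell and mitochondrial share. Kept cells per library ran from 3748 (STING agonist) to 7147 (LTbR agonist), with library totals of 32529174 to 60770280 unique molecular identifier (UMI) counts and median counts of 5750 to 7094 per kept cell. Barcode sequences shared between a pair of libraries numbered 246 among kept cells. Clusters were built without the Klra genes and were named by marker genes only as "like" a cell type. The NK-like class held 1765 cells, the CD8 T-like class 3267, the CD4 T-like class 1394, and T-like cells with neither or both coreceptors, the remaining T-like class, 2241. In NK-like cells Klrb1c (NK1.1) was detected in 76.4% of cells, the natural cytotoxicity receptor Ncr1 in 56.2% and a Cd3 transcript in 12.5%, whereas 97.8% of CD8 T-like cells had a Cd3 transcript and 0.398% had Ncr1.

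In NK-like cells the family was abundant, and the activating genes led it. Of 13698 family UMIs, Klra8 gave 4308, Klra4 3514, Klra7 3205, Klra9 1383, Klra3 800, Klra1 382 and Klra6 106. The kit tags the 5′ end of a transcript once, so UMI counts were compared between genes without dividing by length. Levels below are CPM, the UMIs of a gene divided by all UMIs of the summed cells of a class in a library and scaled to 1e6, with exact Poisson 95% intervals, and shares of cells carry exact (Clopper-Pearson) 95% binomial intervals. Both cover counting error only. Klra8 shares sequence with the pseudogene Klra14-ps, where 38.4% of the 90-base words at the 5′ end of its transcript recur, so its counts are the least certain, and the other 6 members share no such word with another Klra gene there.

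Klra8 stood at 483 CPM (455 to 512) in the untreated library, 346 (317 to 377) with STING agonist, 544 (519.7 to 570.1) with LTbR agonist and 437 (409 to 468) with the combination. Klra4, its activating neighbor, stood at 375, 254, 454 and 383 CPM in the same order. Klra7, the most abundant inhibitory gene, stood at 358, 287, 385 and 338 CPM. The STING agonist library was therefore lowest and the LTbR agonist library highest for each of these 3 genes. Klra9 measured 174, 138, 141 and 155 CPM. Klra3 measured 99.2, 49.2, 109 and 68.8 CPM, and Klra1 51.8, 24.9, 47.1 and 34.9 CPM. Klra6 was the scarcest member, between 8.52 and 14 CPM, and its intervals overlapped in all libraries. At least 1 family UMI was seen in 76.0% of NK-like cells (71.7 to 79.9) untreated, 59.0% (52.7 to 65.1) with STING agonist, 82.6% (79.6 to 85.4) with LTbR agonist and 76.1% (71.5 to 80.3) with the combination.

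The NK-like class was made of distinct clusters, and the family divided between them. A total of 1485 cells lay in clusters with markers of conventional NK cells, the larger led by Gzma, Klra8, Klra4, Klrb1c and Ncr1, and 280 cells lay in a cluster led by Gzmc, Xcl1 and Ncr1 with markers of type 1 innate lymphoid cells (ILC1), tissue-resident relatives of NK cells. The ILC1-like cluster made up 12.7% of NK-like cells in the untreated library, 33.6% with STING agonist, 9.41% with LTbR agonist and 19.4% with the combination. In conventional NK-like cells the summed family level was 1808 CPM (1748 to 1870) untreated, 1795 (1707 to 1886) with STING agonist, 1891 (1841 to 1941) with LTbR agonist and 1814 (1746 to 1883) with the combination. The intervals of these 4 values overlapped for every pair of libraries.

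Within conventional NK-like cells Klra8 read 581, 582, 623 and 569 CPM in untreated, STING agonist, LTbR agonist and combination libraries and was seen in 52.9% to 59.2% of cells. Klra4 read 453, 440.5, 519 and 503 CPM and was seen in 45.3% to 52.0% of cells. Klra7 read 409, 444, 418 and 416 CPM in 45.5% to 54.0% of cells. Among these 3 genes only Klra4 had intervals that lay apart, with LTbR agonist (493 to 546) above untreated (423 to 485) and STING agonist (398 to 487). Klra9 read 185, 221, 151 and 192 CPM, lowest with LTbR agonist. Klra3 read 110 (95.9 to 126), 67.2 (51.1 to 86.6), 116 (104 to 129) and 89.5 (75.0 to 106) CPM and Klra1 54.4, 27.3, 49.0 and 34.5 CPM. For Klra3 and Klra1 the STING agonist value lay below the untreated one with no overlap of intervals, which was not so for the other 5 members. Klra3 was seen in 11.8% to 22.0% of cells by library and Klra1 in 7.24% to 9.42%. Klra6 read 16, 13.7, 14.5 and 10.6 CPM, and its intervals overlapped. The activating pair gave 57.2%, 56.9%, 60.4% and 59.1% of family UMIs in these cells.

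ILC1-like cells had far fewer family UMIs and almost no Klra4. The summed level was 374 CPM (317 to 439) untreated, 176 (145 to 212) with STING agonist, 384 (328 to 447) with LTbR agonist and 181 (145 to 224) with the combination. A family UMI was found in 23.2% (13 to 36.4), 17.4% (10.1 to 27.1), 30.8% (19.9 to 43.4) and 15.1% (7.77 to 25.4) of these cells. The 2 libraries of mice given STING agonist were the lower ones on both measures, with share intervals that overlapped the others. Pooled over libraries Klra7 gave 40.3% of the family UMIs, with 119, 74.2, 165 and 87.4 CPM by library, and Klra9 gave 22.6%, with 124, 26.3, 75.5 and 36.3 CPM. Klra1 measured 39.6, 21.6, 34.3 and 36.3 CPM and Klra3 47.1, 24.7, 59.5 and 2.13 CPM. Klra8 was at 14.9 to 27.4 CPM, and Klra4 was counted 5, 1, 9 and 0 times, where the count of 0 allows up to 6.40 CPM. The activating pair gave 12.0% of the family UMIs pooled over libraries against 58.9% in conventional NK-like cells. These contents rest on 85 to 168 family UMIs per library. Pooled over libraries they lay in 59 cells, and the 5 richest held 28.2% of them.

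**Figure D1:**
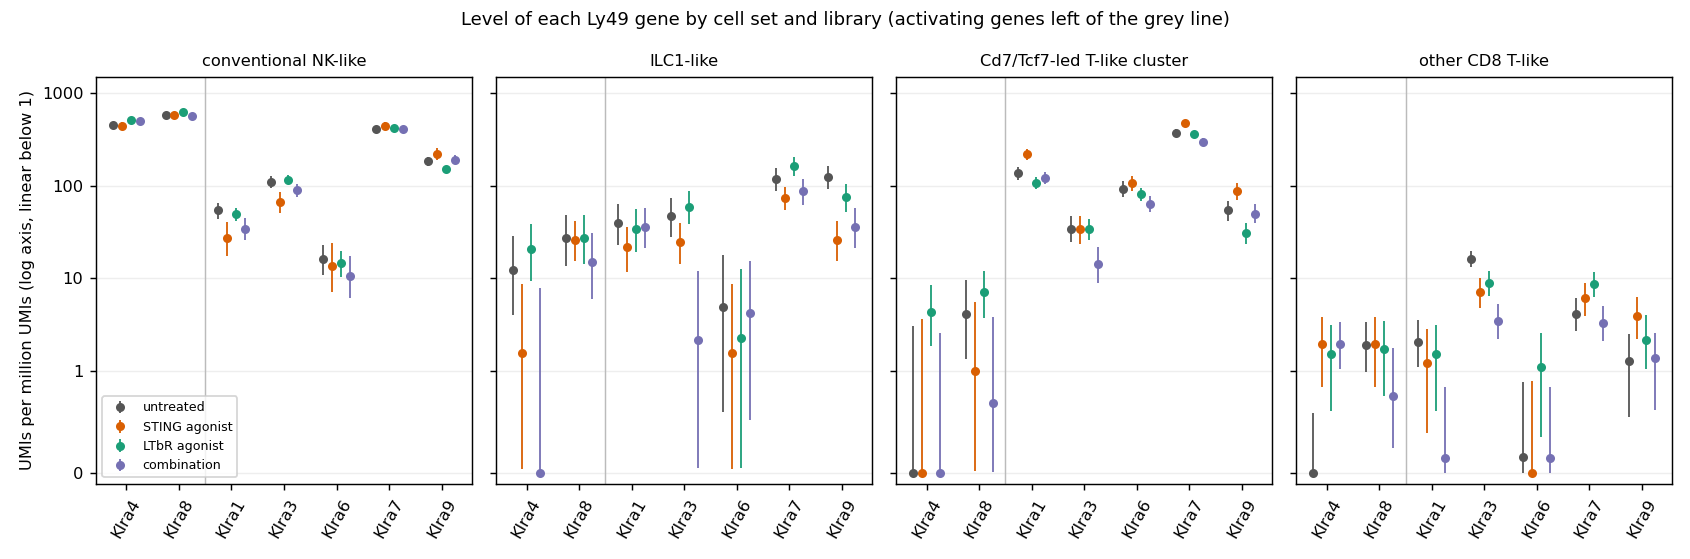
Level of each Ly49 gene in CPM of summed cells (vertical axis, logarithmic above 1 and linear below), by library, in conventional NK-like cells, ILC1-like cells, the T-like cluster led by Klra7, Klra1, Cd7 and Tcf7, and the other CD8 T-like cells. Bars are exact Poisson 95% intervals, and the activating genes stand left of the grey line. Klra8 and Klra4 are at 440.5 CPM or more in conventional NK-like cells and near 0 in the T-like cluster, where Klra7 is highest in every library.

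Among T cells the family was concentrated in 1 cluster of 963 cells, which is called here by its leading genes, the Cd7/Tcf7-led T-like cluster. Its 10 leading genes were Klra7, Klra1, Cd7, Tcf7, Sidt1, Gm2682, Pde2a, Nsg2, Gramd3 and Lef1, and of 8 T cell markers 7 were detected in it. Tcf7 and Lef1 encode transcription factors of naive and memory T cells. A Cd3 transcript was present in 96.6% of its cells, a Cd8 transcript in 28.5% and Cd4 in 1.87%. The T cell receptor alpha constant region Trac was detected in 52.3%, the delta constant region Trdc in 16.2%, and a gamma constant region in 39.0%. Il2rb was detected in 90.3% of cells, Ikzf2 (Helios) in 76.6%, Fcer1g in 65.3%, Klrb1c in 35.7%, Tyrobp in 31.2% and Ncr1 in 8.52%. Foxp3 was detected in 0.415% and Zbtb16, a regulator of natural killer T cells, in 3.22%. The cluster therefore held transcripts of several T cell receptor types and was given no cell type name. Such transcripts were not limited to it. Trdc was detected in 18.8% to 24.4% of conventional NK-like cells by library, though in a smaller share of CD8 T-like cells. A gamma constant region was detected in 32.9% to 49.2% of ILC1-like and 10.8% to 27.2% of CD8 T-like cells. Which receptor each cell carried was not tested. Clusters were formed on the same cells, so no test was run between clusters.

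A family UMI was present in 63.8% (57.1 to 70.1) of the cluster's cells in the untreated library, 74.7% (67.0 to 81.3) with STING agonist, 64.2% (58.8 to 69.3) with LTbR agonist and 57.6% (51.2 to 63.8) with the combination. The summed level was 696 CPM (649.9 to 745), 925 (866 to 986), 629.9 (594 to 667) and 547 (509.8 to 587). The STING agonist library was highest on both measures and the combination lowest, and their intervals did not overlap. Klra7 was seen in 48.4% of the pooled cells, Klra1 in 27.8%, Klra6 in 23.2%, Klra9 in 11.3% and Klra3 in 7.68%. The activating genes were nearly absent, with Klra8 in 0.623% and Klra4 in 0.415% of cells. In the larger conventional NK-like cluster the same shares were 55.7% for Klra7, 9.72% for Klra1, 5.20% for Klra6, 34.2% for Klra9, 22.5% for Klra3, 60.9% for Klra8 and 54.3% for Klra4.

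Klra1 and Klra6 were thus seen in a greater share of the Cd7/Tcf7-led cells than of the larger conventional NK-like cluster. The other 5 members were seen in a smaller share. For Klra7 the direction depended on the NK set. It was seen in 51.1% of all conventional NK-like cells and 44.8% of the NK-like class, against 48.4% of the Cd7/Tcf7-led cells. Klra1 read 137, 219, 108 and 121 CPM in the cluster against 27.3 to 54.4 CPM in conventional NK-like cells, and Klra6 read 93.0, 106, 80.8 and 63.9 CPM against 10.6 to 16 CPM. Neither range overlapped. Of all family UMIs in the cluster Klra7 gave 54.6%, Klra1 20.4%, Klra6 12.4%, Klra9 7.61% and Klra3 4.28%, and the activating pair gave 0.591%, 0.108%, 1.81% and 0.126% by library.

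**Figure D2:**
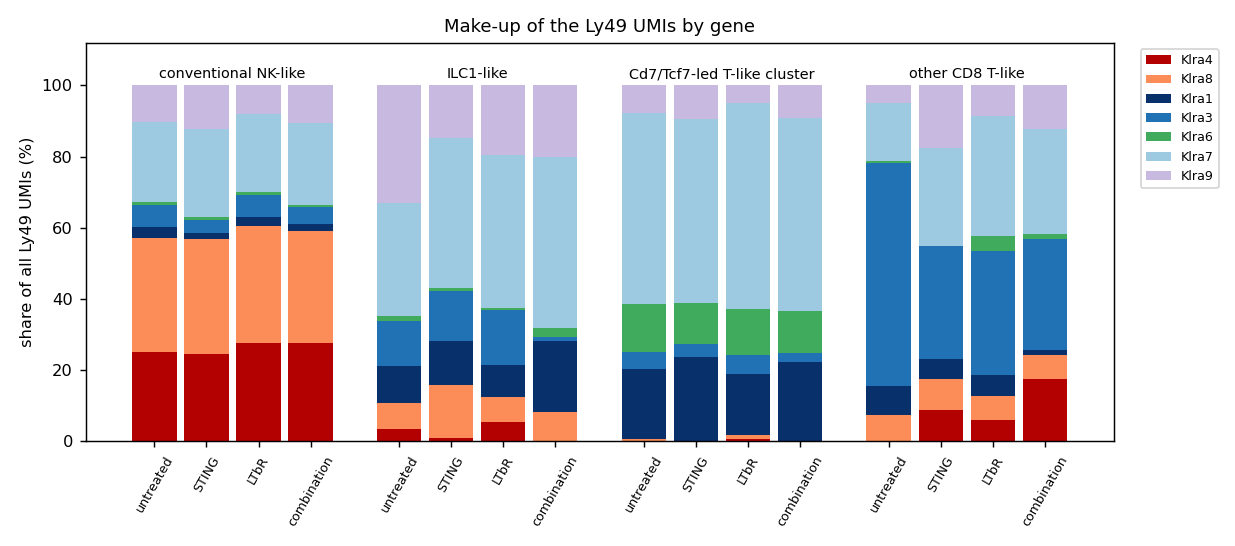
Share of family UMIs from each Ly49 gene (stacked, percent of UMIs of the 7 genes) by library in conventional NK-like cells, ILC1-like cells, the Cd7/Tcf7-led T-like cluster and the other CD8 T-like cells. The activating pair fills 56.9% to 60.4% of the bars of conventional NK-like cells and at most 1.81% of those of the T-like cluster.

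Within the cluster the share of cells with a family UMI differed by T cell receptor transcript. Among 472 cells with a Trac and no Trdc UMI 75.0% (70.8 to 78.8) had a family UMI, against 41.1% (32.4 to 50.3) of 124 cells with Trdc and no Trac. Klra6 was seen in 30.9% of the former and 3.23% of the latter, and Klra7 in 59.5% and 28.2%. The former also had more UMIs per cell (median 5874 against 4562.5), and after each cell was thinned to 1000 UMIs the shares with a family UMI were 43.9% and 20.5%. By coreceptor, 269 cells with a Cd8 UMI had a family UMI in 56.1% and 676 cells with neither coreceptor in 67.5%. Klra6 was seen in 29.0% of the Cd8 cells and 21.2% of the cells with neither, whereas Klra1 was seen in 16.4% and 32.7%.

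The CD8 T-like class as a whole carried the family at low levels. The summed level was 57.6 CPM (52.0 to 63.7) untreated, 68.8 (61.3 to 77.0) with STING agonist, 85.2 (77.5 to 93.5) with LTbR agonist and 36.1 (31.8 to 40.7) with the combination. A family UMI was seen in 10.5% (8.59 to 12.6), 7.94% (5.85 to 10.5), 12.4% (10.2 to 14.9) and 7.45% (5.90 to 9.27) of cells. Klra7 measured 21.7, 29.9, 39.8 and 16.5 CPM. Klra3 measured 20.4, 10.2, 14.1 and 4.3 CPM, and was the only member whose untreated value lay above the other 3 libraries with no overlap of intervals with STING agonist or the combination. Klra6 measured 6.69, 11.1, 11.4 and 5.55 CPM, Klra1 5.63, 7.47, 8.37 and 3.88 CPM, and Klra9 1.37, 6.56, 4.95 and 3.33 CPM. Klra8 was at 0.694 to 4.00 CPM and Klra4 at 0 to 2.66 CPM, where the untreated count of 0 allows up to 0.456 CPM.

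Most of this signal came from CD8 T-like cells that lay in the Cd7/Tcf7-led cluster. Those cells were 4.32% of the class untreated, 7.05% with STING agonist, 12.8% with LTbR agonist and 8.96% with the combination, and they held 57.5%, 70.1%, 73.7% and 71.5% of its family UMIs. Outside that cluster 2998 CD8 T-like cells remained, most of them in a cluster led by Cd8a, Prf1, Rgs16, Lag3 and Ifng. Of these, 8.14% (6.42 to 10.1) had a family UMI untreated, 3.04% (1.75 to 4.88) with STING agonist, 5.87% (4.22 to 7.90) with LTbR agonist and 3.76% (2.62 to 5.22) with the combination. The member seen most often there was Klra3, at 16.1, 7.04, 8.91 and 3.47 CPM and 43.7% of the family UMIs, followed by Klra7 with 25.5%. The untreated Klra3 value lay above the others with no overlap of intervals. Few cells carried these counts, as the 5 richest cells of a library held 29.2% to 76.9% of them.

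The remaining T-like class showed the same concentration. Its summed family level was 285 CPM (264 to 308) untreated, 391 (363 to 421) with STING agonist, 309.5 (289 to 331) with LTbR agonist and 233 (215 to 252) with the combination, in 22.7%, 23.3%, 25.3% and 18.7% of cells. The Cd7/Tcf7-led cluster held 27.3% to 33.2% of the cells of this class and 94.0% to 97.3% of its family UMIs. Klra7 was highest at 151, 211, 187 and 123 CPM, then Klra1 at 63.0, 101, 59.5 and 56.2 CPM, Klra6 at 31.5, 31.7, 33.6 and 21.1 CPM and Klra9 at 29.7, 35.6, 15.4 and 23.4 CPM. Klra3 was at 6.04 to 11.9 CPM, Klra8 at 0.556 to 3.77 CPM and Klra4 at 0 to 1.75 CPM. Outside the cluster, 3.01% of 1560 cells had a family UMI, at 19.7 CPM.

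CD4 T-like cells were at the level of cells not known to use these genes. A family UMI was seen in 0.763%, 1.48%, 1.23% and 2.13% of CD4 T-like cells. Among the B- and plasma-like class the pooled share was 1.96% (14.7 CPM) at a median of 4403 UMIs per cell and in neutrophil-like cells 2.23% (19.4 CPM) at 2278. In macrophage- or monocyte-like cells it was 1.53% (2.42 CPM) at 8443 and in dendritic-like cells 4.00% (8.19 CPM) at 10829. Of the 68 dendritic-like cells with a family UMI 52 had Klra3. Free RNA and mixed droplets were not measured. Remaining T-like cells outside the Cd7/Tcf7-led cluster, at 3.01% and 19.7 CPM, lay above the B- and plasma-like and macrophage- or monocyte-like values, close to the neutrophil-like level and below the dendritic-like share. CD8 T-like cells outside it had 8.14% of cells untreated, 3.04% with STING agonist, 5.87% with LTbR agonist and 3.76% with the combination, at 25.6, 22.1, 25.6 and 11.2 CPM. After thinning to 1000 UMIs these shares were 1.59%, 1.15%, 1.18% and 1.22%, against 0.709% in B- and plasma-like, 0.290% in macrophage- or monocyte-like, 0.894% in dendritic-like and 1.35% in neutrophil-like cells. At equal depth the CD8 T-like cells outside the cluster thus lay between the dendritic-like and neutrophil-like shares in the 3 treated libraries and above both untreated, with no test.

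**Figure D3:**
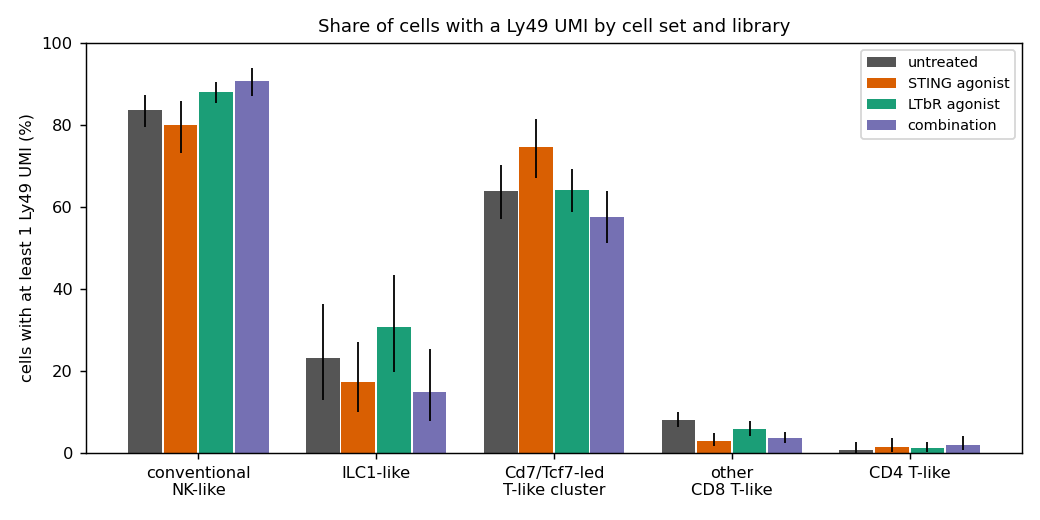
Percent of cells with at least 1 UMI of the 7 Ly49 genes, by library, for conventional NK-like, ILC1-like, Cd7/Tcf7-led T-like, other CD8 T-like and CD4 T-like cells. Bars start at 0 and error bars are exact 95% binomial intervals. Conventional NK-like cells stand at 80% to 90.8% and CD4 T-like cells at 0.763% to 2.13%.

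The classes were compared across the 4 libraries with edgeR's quasi-likelihood test on UMI sums, with the library as a block and p-values adjusted over 10651 genes. The libraries differ in treatment, so the spread in these tests includes that of the treatments. Between NK-like and CD8 T-like cells 6 of 7 members were higher in NK-like cells and 0 lower, where 22.8% of all genes were higher and 22.1% lower. Klra4 was higher by 7.92 ± 0.21 (log2 ± SE, adjusted p = 1.69e-16) and Klra8 by 7.83 ± 0.21. The inhibitory genes followed with Klra9 at 5.32 ± 0.29, Klra7 at 3.71 ± 0.21, Klra3 at 2.78 ± 0.21 and Klra1 at 2.73 ± 0.31 (adjusted p = 3.86e-07). Klra6 gave 0.41 ± 0.20 (adjusted p = 0.106), with NK-like levels of 8.52 to 14 CPM and CD8 T-like levels of 5.55 to 11.4 CPM, which overlapped. Without the STING agonist library it was called (0.61, adjusted p = 0.0302). The median over the members was 3.71 and that over all genes 0.00.

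Between NK-like and remaining T-like cells the family split in direction. Higher in NK-like cells were 5 members (14.6% of all genes), Klra4 by 9.21 ± 0.29, Klra8 by 7.76 ± 0.24, Klra3 by 3.30 ± 0.27, Klra9 by 2.66 ± 0.25 and Klra7 by 1.11 ± 0.18. Lower were 2 (17.5% of all genes, and 32.1% in either direction), Klra6 at -1.32 ± 0.19 (adjusted p = 1.3e-05) and Klra1 at -0.67 ± 0.25 (adjusted p = 0.0438). The Klra1 call was lost without the STING agonist library (adjusted p = 0.0963) and without the combination library (0.0758), and DESeq2 called neither Klra1 (adjusted p = 0.666) nor Klra7 (0.178). With classes set by marker UMIs of each cell in place of clusters, Klra4 was higher by 3.93 and Klra8 by 4.14, and Klra1 was not called (adjusted p = 0.289).

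The remaining T-like class was also set against CD8 T-like cells, and 4 members were higher in it (23.0% of all genes) and 0 lower (19.7%, and 42.7% in either direction). Klra1 differed by 3.40 ± 0.28, Klra9 by 2.66 ± 0.37, Klra7 by 2.60 ± 0.21 and Klra6 by 1.73 ± 0.17. Klra3 (-0.52, adjusted p = 0.206), Klra4 (-1.30, adjusted p = 0.20) and Klra8 (0.07, adjusted p = 0.933) passed no threshold in edgeR. Klra4 was called lower without the untreated library (-1.65) and Klra3 without the combination library (-0.74), and with marker gates in place of clusters Klra4 (3.08) and Klra8 (2.62) were higher in remaining T-like cells, 1 of them turning direction. CD8 T-like cells exceeded CD4 T-like cells for 3 members (17.5% of all genes) and fell below for 0 (19.7%, and 37.2% in either direction). Those were Klra6 at 4.76 ± 0.51 (adjusted p = 2.78e-07), Klra3 at 3.23 ± 0.57 and Klra7 at 2.62 ± 0.45. In the STING agonist library the Cd7/Tcf7-led cluster held 6 CD4 T-like cells, with or without a family UMI, and 97.0% of the CD4 T-like family UMIs. Without that library Klra1 (3.96) and Klra9 (3.05) were called too and the count was 5.

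Single cells carried assortments of the genes. Among conventional NK-like cells with a family UMI 81.1% had UMIs of at least 2 members, with a mean of 2.55 and at most 6 members per cell. In the Cd7/Tcf7-led cluster 60.3% of such cells had at least 2 members, with a mean of 1.86, and in CD8 T-like cells outside it 10.5%, with a mean of 1.17. After thinning to 1000 UMIs the shares were 50.2%, 26.6% and 10.3%, in the same order. In conventional NK-like cells Klra8 was seen in 70.5% of cells with Klra4 and 42.2% of cells without it, higher with Klra4 in 4 of 4 libraries, and after thinning in 44.9% and 31.0%. Klra8 was likewise seen in 65.3% of cells with Klra9 and 52.1% without, and after thinning in 45.2% and 33.5%. Klra7 was seen in 47.9% of cells with Klra9 and 52.5% of those without, higher with Klra9 in 1 of 4 libraries (48.3% against 44.2% untreated), and after thinning in 21.6% and 28.0%.

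In the Cd7/Tcf7-led cluster Klra7 was seen in 77.1% of cells with Klra6 and 39.7% of those without it, and after thinning in 37.3% and 21%. It was seen in 75.4% of cells with Klra1 and 38.0% of those without, and after thinning in 38.5% and 20%. Both pairs were higher together in 4 of 4 libraries. With Klra3 the shares were 48.6% and 48.4%. Cells with a given member had more UMIs in general, for instance a median of 6160 with Klra6 and 4835 without, and the part of depth in the unthinned shares was not separated further.

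The study asked what the agonists do to the tumor's immune cells, and each treated library was set against the untreated one. Over all NK-like cells the summed family level had a log2 ratio to untreated, after 10 CPM were added to each level, of -0.48 (-0.60 to -0.37) with STING agonist, 0.12 (0.04 to 0.21) with LTbR agonist and -0.12 (-0.22 to -0.02) with the combination. With marker gates in place of clusters the LTbR agonist value turned to -0.0611 and the combination value moved to -0.31. The ratio of the shares of cells with a family UMI was 0.776 (0.660 to 0.908), 1.09 (0.996 to 1.19) and 1.00 (0.895 to 1.12). Within conventional NK-like cells the log2 ratios were -0.01 (-0.13 to 0.11), 0.06 (-0.02 to 0.15) and 0.00 (-0.10 to 0.11), and the STING agonist ratio of shares was 0.957 (0.839 to 1.08). The lower NK-like level with STING agonist was thus not present in the conventional cells taken alone. In ILC1-like cells the log2 ratios were -1.04 (-1.53 to -0.56) with STING agonist, 0.04 (-0.41 to 0.48) with LTbR agonist and -1.0 (-1.53 to -0.48) with the combination. The ratios of shares there were 0.751 (0.277 to 2.09), 1.33 (0.547 to 3.35) and 0.649 (0.213 to 1.95), each with an interval that spanned 1. The level intervals treat each UMI as separate, while the pooled UMIs lay in 59 cells.

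Single members departed from this. With STING agonist the log2 ratio in all NK-like cells was -0.88 (-1.34 to -0.43) for Klra3 and -0.82 (-1.38 to -0.26) for Klra1, and in conventional NK-like cells alone it was -0.64 (-1.16 to -0.13) and -0.79 (-1.47 to -0.10). In the same conventional cells Klra4 stood at -0.04, Klra8 at 0.00, Klra7 at 0.11, Klra9 at 0.25 and Klra6 at -0.14. Klra3 and Klra1 were thus the members whose interval lay below 0 there with STING agonist. For Klra1 the share of cells varied little, from 7.24% to 9.42% over the libraries. Its 320 pooled UMIs came from 129 cells, and the interval does not cover such clumping of UMIs in cells. With LTbR agonist Klra4 stood at 0.19 (0.02 to 0.36) and Klra9 at -0.28 (-0.55 to 0.00) in the same cells.

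In CD8 T-like cells the log2 ratios of the summed level were 0.22 (-0.05 to 0.49) with STING agonist, 0.49 (0.25 to 0.74) with LTbR agonist and -0.55 (-0.82 to -0.29) with the combination, and the ratios of shares were 0.757 (0.463 to 1.22), 1.18 (0.805 to 1.74) and 0.711 (0.466 to 1.08). The level and the share with STING agonist lay on opposite sides of the untreated value, each with an interval that spanned it. Outside the Cd7/Tcf7-led cluster the log2 ratios of the level were -0.15 (-0.52 to 0.22) with STING agonist, 0.00 (-0.35 to 0.35) with LTbR agonist and -0.75 (-1.09 to -0.41) with the combination, and the ratios of shares were 0.373, 0.721 and 0.462. Klra7 gave 0.33, 0.65 (0.32 to 0.97) and -0.26 over the whole class, and Klra3 gave -0.59, -0.33 and -1.09 (-1.40 to -0.75). In the Cd7/Tcf7-led cluster the log2 ratios of the summed level were 0.40 (0.22 to 0.59) with STING agonist, -0.14 (-0.32 to 0.04) with LTbR agonist and -0.34 (-0.54 to -0.15) with the combination. Its CD8 T-like cells ran at 740.5, 708, 505 and 315 CPM and its remaining T-like cells at 688, 1026, 706 and 705 CPM, so the low combination value lay with the former and the high STING agonist value with the latter.

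**Figure D4:**
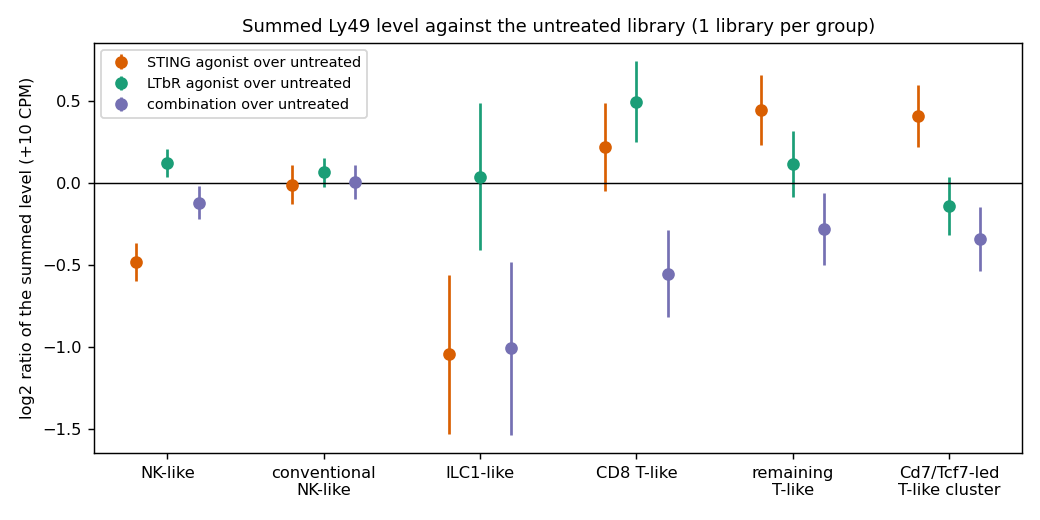
log2 ratio of the summed Ly49 level to the untreated library, after 10 CPM were added, for each treated library in NK-like cells, its conventional and ILC1-like clusters, CD8 T-like cells, remaining T-like cells and the Cd7/Tcf7-led cluster. Bars are 95% counting intervals and 0 means equal to untreated. Conventional NK-like cells sit at -0.01 to 0.06 and ILC1-like cells at -1.04 to 0.04.

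The adapters and ligands were also measured. Tyrobp and Fcer1g, another adapter of activating receptors, were detected in 83.6% and 86.6% of NK-like cells. In CD8 T-like cells Tyrobp measured 27.4, 19.7, 41.9 and 25.9 CPM, against 1838 to 2256 CPM in NK-like cells. The ligand gene H2-D1 measured 2254 CPM in NK-like cells untreated, 3004 with STING agonist, 2249.9 with LTbR agonist and 2582 with the combination. In macrophage- or monocyte-like cells it measured 2571, 2992, 2211 and 2557 CPM, so the STING agonist library was highest in both. H2-K1, the other classical ligand gene, measured 2538, 3019, 2793 and 2825 CPM in NK-like cells.

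CD8 T-like cells with a family UMI (97, 45, 97 and 74 cells) were compared with those without (828, 522, 685 and 919) by edgeR on sums within each library. Cells with a family UMI were deeper, with medians of 6696 to 7989 UMIs against 5766 to 6865. Of 9853 genes, 341 were higher (3.46%) and 240 lower (2.44%) in cells with a family UMI. Without the STING agonist, LTbR agonist or combination library in turn 311, 252 and 273 genes were called. Tyrobp, the adapter of the activating receptors, stood at 72.7, 117, 142 and 144 CPM with a family UMI against 20.4, 11.1, 24.2 and 15.4 CPM without and was higher by 2.74 ± 0.21. Fcer1g stood at 281, 471, 282 and 326 CPM against 76.5, 55.9, 48.4 and 64.0 CPM and was higher by 2.48 ± 0.15. The values with and without a family UMI did not overlap for either gene, while Hcst gave 0.09 ± 0.08. Of the other NK-complex receptors 10 were tested, with Klrb1c (4.03 ± 0.27) and Klrb1a (2.71) higher and Klrc1 (-0.58), Klrd1 (-0.38) and Klri2 (-1.08) lower.

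The gene groups of these cells ran as follows. Of 6 naive and memory genes 4 were higher and 0 lower, with Tcf7 (2.28), Lef1 (1.46) and S1pr1 (1.06) among the higher ones, and after thinning 2 were higher and 1 lower. Of 12 genes of innate-like or virtual memory CD8 T cells 5 were higher and 0 lower, with Fcer1g, the chemokine Xcl1 (2.03), Ikzf2 (1.80) and Ly6c2 (0.91) among the higher ones. Of 8 exhaustion genes 6 were lower, the checkpoint receptors Pdcd1 (-0.86), Ctla4 (-0.79), Havcr2 (-0.68), Lag3 (-0.61) and Tigit (-0.37) and the ectonucleotidase Entpd1 (-0.64), and Cd160 (0.89) was higher. Of 10 tested cytotoxic genes Gzma was higher (1.01 ± 0.12) and Gzme (-1.26), Ifng (-0.62) and Prf1 (-0.50) were lower, and after thinning 0 were higher and 2 lower. Of 13 transcription factors Id3 (3.88), Ikzf2 and Tcf7 were higher and Id2 (-0.62) and Zeb2 (-0.59) lower. Among the signalling genes Plcg2 (1.05) was higher and Zap70 (-0.34) lower. After thinning 2 activating signalling genes were tested, 0 higher and 1 lower. None of 3 inhibitory signalling genes, 3 MHC class I ligand genes and 5 cycling genes passed the edgeR threshold. The largest rises among all called genes were those of Rbpms (4.10 ± 0.46), the sodium pump subunit Atp1b1 (4.06 ± 0.32), Tmem108, Klrb1c, Id3, Lrmda, Clnk, Cd7 (3.16 ± 0.22), Tcrg-C4 and Pde2a, and the largest falls those of Ptprk (-4.45 ± 0.80), the proenkephalin gene Penk (-3.94 ± 0.45), Igfbp7, Rai14 and Gstm5.

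Without the Cd7/Tcf7-led cluster, 21 genes were called of 9761, 13 higher and 8 lower, of which 12 were among the 581. Tyrobp (2.64, adjusted p = 2.91e-09), Fcer1g (1.96, adjusted p = 1.86e-10), Klrb1c (4.00, adjusted p = 6.28e-07), Gzma (1.77, adjusted p = 1.59e-12) and Gzmb (0.60, adjusted p = 0.0109) were higher in that edgeR fit. None of the exhaustion or naive and memory genes was called, and Tcf7 gave -0.41 (adjusted p = 0.975). Marker sums were made over the whole CD8 T-like class, that cluster included, and not for the cells outside it. The summed NK marker list was higher in cells with a family UMI in 4 of 4 libraries (2223 to 2973 CPM against 1442 to 2116). The summed macrophage list was 1343 to 2026 CPM against 738 to 1040, and without Ly6c2, which T cells also express, 41.8 to 265 CPM against 47.1 to 87.3, higher in 1 of 4 libraries. The summed T list was higher in 0 of 4 libraries (3557 to 4842 CPM against 4392 to 5301), with 3 of 8 markers called lower. The B or plasma list was higher in 4 of 4 (28.4 to 104 CPM against 10.8 to 43.8). The neutrophil list was higher in 3 and the dendritic list in 1 of 4. No marker of these lists was at 0 in every cell, and the part of admixed or paired cells in the split was not tested.

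**Figure D5:**
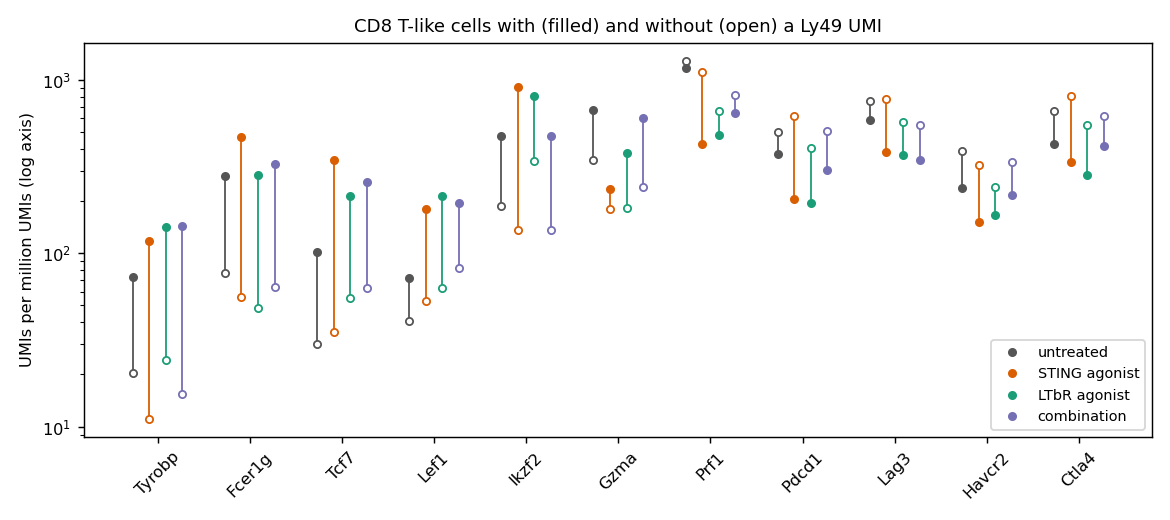
Level (CPM, logarithmic axis) of 11 genes in CD8 T-like cells with (filled) and without (open) a Ly49 UMI, 1 point per library and group. Tyrobp, Fcer1g, Tcf7, Lef1, Ikzf2 and Gzma are higher with a Ly49 UMI, and Prf1, Pdcd1, Lag3, Havcr2 and Ctla4 are lower.

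NK-like cells with a family UMI (335, 151, 571 and 287 cells) differed from those without (106, 105, 120 and 90) at 586 of 7486 genes in edgeR, 294 higher (3.93%) and 292 lower (3.90%). Without the combination library 369 were called, and DESeq2 called 261. Eomes, a transcription factor of conventional NK cells, stood at 302, 261, 261 and 289 CPM with a family UMI and 39.0, 37.1, 76.1 and 44.9 CPM without and was higher by 2.51 ± 0.15. Besides Eomes, Prdm1 (1.08), Nfil3 (0.84) and Zeb2 (0.56) were higher of 11 transcription factors tested, and Ikzf2 (-1.29), Tbx21 (-0.35) and Id2 (-0.33) were lower. Of 9 cytotoxic genes tested Gzma (1.80), Prf1 (0.70) and Gzmb (0.59) were higher and Gzmc (-1.38) and Gzme (-1.24) lower. Of 7 exhaustion genes Tigit (0.34) was higher and Pdcd1 (-2.78), Lag3 (-1.31), Cd160 (-1.25) and Ctla4 (-1.24) were lower. Of 13 NK-complex receptors Klri2 (1.36), Klrc3 (1.24), Klre1 (0.56), Klrc2 (0.49) and Klrb1c (0.39) were higher and Klrb1b (-1.53) and Klrc1, which encodes NKG2A (-1.18), lower. After thinning 11 receptors were tested, 1 higher and 2 lower. Of 6 naive and memory genes 1 was higher and 1, Il7r, lower (-2.28).

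Among the receptors' own signalling genes Tyrobp (0.61), Syk (0.61) and Inpp5d (0.30) were higher and Ptpn6 (-0.43) was lower. The largest rises were those of Khdc1a (4.63 ± 0.44), Phactr3, Col8a2, As3mt, Cmah, Osbpl1a, Eomes, Serpinb9b, Cd55 and D5Ertd615e, and the largest falls those of Cntn1, Krt83, Tmem176a, Ccdc184 and Tmem176b. This split followed the clusters to a large extent. Within the conventional NK-like clusters 590 of 6289 genes were called and 124 of them were among the 586. There Eomes (1.21, adjusted p = 0.00155), Klri2 (1.51), Tyrobp (1.00), Gzmb (1.08) and Prf1 (0.59) were higher and Ikzf2 (-2.15), Klrb1b (-1.36), Klrc1 (-1.05) and Il7r (-1.62) lower in edgeR. Of 11 transcription factors tested in these clusters 1 was higher and 2 lower, and of 12 NK-complex receptors 1 was higher and 2 lower. Gzmc (0.89, adjusted p = 0.0220) and Ptpn6 (0.87, adjusted p = 0.0364) turned to higher, and Gzma gave 0.30 (adjusted p = 0.431). Cells without a family UMI there had medians of 1466.5 to 2856 UMIs against 4304 to 4996 with, and the part of depth in this split was not tested.

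Across the 16 sums of 4 classes and 4 libraries, the genes whose level was most like the summed family level were Qrfp (Pearson r = 0.98), 1700025G04Rik (0.98), Samd3 (0.97), Klrb1c (0.97) and Evl (0.97), of 9314 genes compared. Klra4 and Klra8 were nearly parallel (r = 1.00), Klra1 followed Klra6 (0.88) and Klra7 (0.87), and Klra6 had r of 0.07 with Klra4 and 0.08 with Klra8. The inhibitory genes Klra3 (0.92 and 0.92) and Klra9 (0.90 and 0.90) followed the activating Klra4 and Klra8. Klra3 had r of 0.30 with Klra6 and 0.87 with Klra9, the members whose promoter stretches were equally close to its own. Whether the stretch bears on these values was not tested. The 16 points share libraries and classes, and these values are descriptions.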

How the data were processed

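Single-cell libraries (10x 5′ kit) were analyzed by the authors with Cell Ranger 7.1.0 on mm10, and the deposited values are raw UMI counts per gene and barcode, with filtered barcodes. Kept cells had 300 to 5000 detected genes and at most 6% mitochondrial counts. Clusters came from scanpy 1.11.5 (2000 variable genes, 30 principal components, 20 neighbors, Leiden resolution 1), without the 11 Klra and 641 antigen receptor genes. A name needed 3 markers detected in 25% of cells, and a cluster with 6 or more detected markers of both a lymphoid class and macrophages was left unnamed, a limit set after the clusters had been seen. Names were rebuilt here and may differ from the study's. T-like cells were divided by Cd4 and Cd8 UMIs. Doublets were kept, and removing the 678 cells (2.95%) with a Scrublet score of 0.2 or more was an alternative, with 4 such cells in the NK-like and 12 in the CD8 T-like class.

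UMI sums were tested with edgeR 4.0.16 (quasi-likelihood, TMM, filterByExpr, library as a block, R 4.3.3) at a Benjamini-Hochberg adjusted p of 0.05, and with DESeq2 1.42.0 as an alternative. The SE of a log2 difference was its size divided by the root of F. No spread between mice enters any p. The tests were checked on simulated counts. Alternatives were library totals for TMM, no filter on low counts, leaving out each library, marker gates, Klra genes in the clustering, Leiden resolution 2, thinning to 1000 UMIs, pseudocounts of 1 and 50 CPM for 10, means per cell, and leaving out the 5 richest cells. The 7 members were named in every comparison, gene lists were counted whole, and beyond these the 10 highest and 5 lowest called genes with at least 50 UMIs and the same direction in all libraries were named. Members and lists were chosen with earlier results of these data known. The contrasts of remaining T-like cells, and fits without a cluster, were added after values had been seen. Some listed genes are not reported here.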

Additional observations from a re-analysis of the deposited data

Results flagged for a closer look

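The STING agonist library stood below untreated in NK-like cells and above it in remaining T-like cells (log2 ratio of the summed Ly49 level -0.48 and 0.44). Between the combination and STING agonist the log2 ratio was -0.77 in CD8 T-like cells, -0.72 in remaining T-like cells and 0.36 in NK-like cells, so the classes lay on opposite sides of 0. With 1 library per group these differences between classes were not tested.

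Outside the lymphoid classes the LTbR agonist library lay above the untreated one for the summed family level in macrophage- or monocyte-like cells (3.72 CPM against 2.17) and in neutrophil-like cells (33.4 CPM against 3.12), where Klra7 reached 12.4 CPM, and for Klra4 in dendritic-like cells (3.41 CPM). Few cells carried these counts, as 12 neutrophil-like cells held the 43 family UMIs of that library, the 5 richest of them 74.4%, and 4 dendritic-like cells held its 18 Klra4 UMIs. These were looked at as background classes, and whether they come from free RNA or from mixed droplets was not tested.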

How the results depend on the processing

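No paired analysis was possible because each group holds 1 library and the labels give no replicate numbers shared between groups. This holds for the contrasts between treatments, since the class and split tests compared sums within a library. Single-member results kept direction and side of the threshold in 319 cases, crossed the threshold in 15 and reversed in 2, both for Klra4 between remaining T-like and CD8 T-like cells (3.08 with marker gates and 2.82 with no cell filter, against -1.30). Of the class counts, the members called between CD8 T-like and CD4 T-like cells ran from 3 to 5 when a library was left out. Genes called in the CD8 T-like split (581) ran from 252 to 702 when a library was left out, with 702 without the untreated library. They numbered 872 with at least 2 family UMIs, 127 after thinning and 21 without the Cd7/Tcf7-led cluster. Library totals in place of TMM gave 288 higher and 299 lower in place of 341 and 240. Genes called in the NK-like split (586) ran from 369 to 494 when a library was left out, and numbered 261 with DESeq2 and 103 after thinning.

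In NK-like cells the log2 ratio of the level to untreated with LTbR agonist reversed to -0.0611 with marker gates and -0.0828 with no cell filter. That of the combination moved to -0.31 and -0.33 under those settings and to -0.0031 with the mean CPM per cell, and reversed to 0.0043 in conventional cells. With STING agonist, conventional cells gave -0.0107 for the level and 0.957 for the share. Without the Cd7/Tcf7-led cluster the CD8 T-like share ratios were 0.373, 0.721 and 0.462, and the level ratios -0.15, 0.00061 and -0.75, in the order STING agonist, LTbR agonist and combination. The cause was not tested. Klra genes in the clustering, Leiden resolution 2, the pseudocounts, the removal of doublet scores and of the richest cells moved none of the main counts or ratios past these limits. Intervals cover counting error only, and with 1 library per group the spread between samples is not known.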

Other observations

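The 4 Klra genes outside the family list had patterns of their own. Klra2 was a gene of myeloid cells here, detected in 66.1% of macrophage- or monocyte-like cells, at 245, 245, 179 and 219 CPM in untreated, STING agonist, LTbR agonist and combination libraries, and in 29.9% of neutrophil-like cells. In NK-like cells it was at 0.506 to 3.07 CPM. Klra17 was detected in 9.17% of dendritic-like cells (18.9 CPM pooled) and was close to 0 in NK-like cells, at 0 to 2.63 CPM. Klra5 was found in CD8 T-like cells at 21.4 CPM (18.0 to 25.3) untreated, 9.96 with STING agonist, 5.14 with LTbR agonist and 25.9 (22.4 to 29.9) with the combination, an order of libraries unlike that of Klra7. In ILC1-like cells Klra5 measured 71.8, 61.8, 43.5 and 25.6 CPM and was seen in 10.4% of cells, more often than Klra4. Klra10 was counted 49 times in NK-like cells and was higher there than in CD8 T-like cells by 5.44 on the log2 scale.

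A family UMI was also seen in 18.8% of cells of a cluster with both T cell and macrophage markers, of whose 613 cells 403 (65.7%) had a doublet score of 0.2 or more, and in 11.6% of 596 cells of an unnamed cluster with few UMIs.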
